A study of Mus musculus with 8 samples.

Results

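The lipins *Lpin1*, *Lpin2* and *Lpin3* are the mouse family of phosphatidate phosphatases, and they made up 3 of the 38283 genes for which FPKM (sequenced fragments of a gene relative to the length of its transcripts and the size of the library) was available in liver. They were taken by gene symbol. The family was chosen by the FPKM of these libraries, in which *Lpin1* had been seen to be low in livers labelled as RORα knockout. The genotype values of the lipins are therefore given as a description without a test. The nuclear receptor RORα was deleted in hepatocytes of C57BL/6 mice that carried loxP sites around exons 4 and 5 of both *Rora* alleles together with Cre under the albumin promoter (Alb-cre;RORa f/f in the labels, RORα LKO here), and the controls carried the same floxed alleles without Cre (RORα f/f). Male mice received a control diet (CD) or a high-fat diet with 60% of its energy from fat (HFD) for 10 weeks from 8 weeks of age, with food available at all times. Each of the 4 groups had 2 libraries, each made from the livers of 2 mice combined. Cells other than hepatocytes thus contributed RNA to every library, and the deletion in those cells was not measured here.

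Lipins remove the phosphate from phosphatidate and so make diacylglycerol, the common precursor of triglyceride, phosphatidylcholine and phosphatidylethanolamine. Lipin 1 also enters the nucleus, where it acts with PPARα and its coactivator PGC-1α on genes of fatty acid oxidation and restrains the lipogenic factor SREBP. *Lpin1* is known in liver for its induction by fasting and glucocorticoids, lipin 2 is a major phosphatidate phosphatase of liver, and lipin 3 is better known from intestine.

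*Lpin1* (ENSMUSG00000020593) lies on the minus strand of chromosome 12 of GRCm38 from 16535669 to 16610966. *Lpin2* (ENSMUSG00000024052) lies on the plus strand of chromosome 17 from 71182560 to 71249817, and *Lpin3* (ENSMUSG00000027412) on the plus strand of chromosome 2 from 160880670 to 160906002. The 250 bases before the RefSeq starts of each gene (GRCm38.p6 table) were searched on both strands for AGGTCA, the half-site that RORs share with other nuclear receptors, and for CACGTG, the E-box read by clock and other basic helix-loop-helix factors. The windows of *Lpin1* and of the first of 3 *Lpin2* starts are shown because they were the ones that held a match, which stands in capitals.
*Lpin1*, chr12:16610967-16611216, minus strand: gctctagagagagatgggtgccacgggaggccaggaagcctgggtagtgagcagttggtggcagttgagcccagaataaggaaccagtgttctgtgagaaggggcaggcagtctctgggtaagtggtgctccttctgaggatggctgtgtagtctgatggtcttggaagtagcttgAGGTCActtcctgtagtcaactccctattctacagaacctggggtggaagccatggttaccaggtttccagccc
*Lpin2*, chr17:71183282-71183531, plus strand: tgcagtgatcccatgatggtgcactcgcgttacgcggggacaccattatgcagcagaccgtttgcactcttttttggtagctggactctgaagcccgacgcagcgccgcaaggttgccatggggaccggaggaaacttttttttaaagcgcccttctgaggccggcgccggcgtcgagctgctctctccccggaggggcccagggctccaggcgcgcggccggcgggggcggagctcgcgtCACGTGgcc
The *Lpin1* window held 1 AGGTCA, in the direction of transcription at bases -74 to -69 from the start, and no CACGTG. The *Lpin2* window held 1 CACGTG at bases -9 to -4 and no AGGTCA. The other 2 *Lpin2* windows and both *Lpin3* windows held neither. Of 32851 windows of this length, 14% held AGGTCA and 6.02% held CACGTG. A match is a run of letters and not a measured binding site.

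The libraries had between 10587 and 10706 genes above FPKM 1, and the file gives no read counts, so the depth behind a value is unknown here. *Rora* over the whole gene read 8.72 ± 0.184 FPKM (SD, n = 2) in CD-fed RORα f/f, 8.07 ± 0.151 in CD-fed RORα LKO, 7.71 ± 0.216 in HFD-fed RORα f/f and 7.66 ± 0.506 in HFD-fed RORα LKO libraries. In limma with Benjamini-Hochberg adjustment the genotypes did not differ in *Rora* past the threshold on CD (log2 difference -0.10, adjusted p = 0.61) or on HFD (0.01, adjusted p = 0.97). FPKM of the whole gene also counts exons other than the floxed exons 4 and 5, and no values per exon were available. It is thus a weak check of the labels, and genotypes are those given by the labels throughout. The authors reported strongly reduced RORα mRNA and protein in liver and primary hepatocytes of RORα LKO mice. The hepatocyte markers *Apob* (789 to 862 FPKM) and *Ttr* (3994 to 4541 FPKM) were high in every library. Of the 7 hepatocyte markers tested, 0 passed adjustment between genotypes, with list medians of -0.15 on CD and -0.11 on HFD, and *Cps1*, the first enzyme of the urea cycle, was lower in RORα LKO on HFD (596.5 and 665.9 FPKM in RORα f/f, 455.6 and 454.8 in RORα LKO, log2 difference -0.46, limma unadjusted p = 0.0058, adjusted p = 0.31), where *Lpin1* was also low. The part of these markers in the lipin values was not tested. *Alb* was listed at 0 in 4 libraries, namely CD-fed RORα LKO library 1, HFD-fed RORα f/f library 2 and both HFD-fed RORα LKO libraries, whereas no lipin was listed at 0 in any library. *Alb* is 1 of the 7 markers, and its log2 differences of -7.58 on CD and -7.45 on HFD (SE 5.7 each) rest on these entries. They enter the list medians above. In these bulk livers, fewer cells of a type and less RNA per cell cannot be told apart.

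*Lpin1* was low in both RORα LKO groups, and lowest on CD. Its FPKM was 68.5 and 77.3 in CD-fed RORα f/f libraries, 17.5 and 18.8 in CD-fed RORα LKO, 68.8 and 77.4 in HFD-fed RORα f/f, and 27.6 and 34.2 in HFD-fed RORα LKO. All 4 RORα LKO libraries lay below all 4 RORα f/f libraries, both HFD-fed RORα LKO libraries lay above both CD-fed ones, and the RORα f/f groups overlapped between the diets. The group means were 72.9 ± 6.22 (SD, n = 2) in CD-fed RORα f/f, 18.1 ± 0.931 in CD-fed RORα LKO, 73.1 ± 6.09 in HFD-fed RORα f/f and 30.9 ± 4.68 in HFD-fed RORα LKO. Mean *Lpin1* FPKM was thus 4.02-fold lower in RORα LKO than in RORα f/f liver on CD and 2.37-fold lower on HFD.

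On the normalized log2(FPKM + 1) scale, the genotype difference of *Lpin1* (RORα LKO minus RORα f/f) was -1.91 (SE 0.12) on CD and -1.22 (SE 0.12) on HFD. The gap was thus narrower on HFD by 0.68 (SE 0.17). The diet difference (HFD minus CD) of *Lpin1* was 0.08 (SE 0.12) in RORα f/f and 0.76 (SE 0.12) in RORα LKO liver. These comparisons share groups with each other, so their values are not independent. Among 11634 genes tested, 33 had a lower genotype difference than *Lpin1* on CD, of which 32 were listed at 0 in at least 1 library. On HFD, 57 genes had a lower difference than *Lpin1*, of which 44 were listed at 0 in at least 1 library and 13 in none. *Lpin1* had been chosen as low in these same comparisons, so its place among the genes is a description and not a test.

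**Figure D1:**
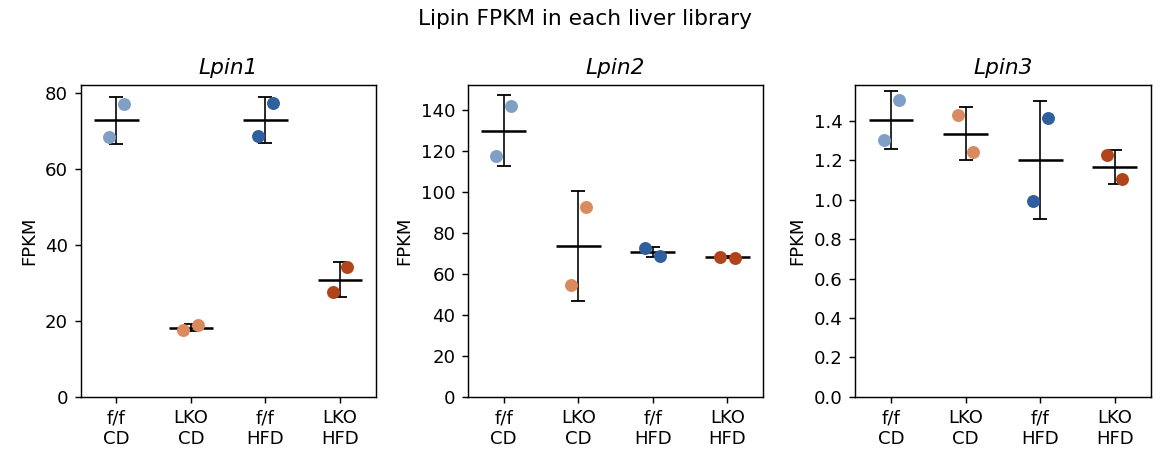
FPKM of *Lpin1*, *Lpin2* and *Lpin3* (vertical axes, each from 0) in the 4 groups of liver libraries. Points are libraries (2 per group), horizontal lines are group means and bars are 1 SD. *Lpin1* lies between 17.5 and 34.2 in the 4 RORα LKO libraries and between 68.5 and 77.4 in the 4 RORα f/f libraries.

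*Lpin2* followed another order, with CD-fed RORα f/f liver above the other 3 groups. Its FPKM was 117.6 and 142 in CD-fed RORα f/f libraries, 54.5 and 92.4 in CD-fed RORα LKO, 72.3 and 68.8 in HFD-fed RORα f/f, and 68.3 and 67.7 in HFD-fed RORα LKO. Both CD-fed RORα f/f libraries lay above the other 6, and the wide gap between the CD-fed RORα LKO libraries took in all 4 HFD-fed libraries. Mean *Lpin2* was 129.8 ± 17.2 FPKM (SD, n = 2) in CD-fed RORα f/f, 73.45 ± 26.8 in CD-fed RORα LKO, 70.6 ± 2.51 in HFD-fed RORα f/f and 68.0 ± 0.446 in HFD-fed RORα LKO liver. The lower 3 of these means lay within the spread of the CD-fed RORα LKO libraries.

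Mean *Lpin2* FPKM was 1.77-fold lower in RORα LKO than in RORα f/f liver on CD, and 1.84-fold lower on HFD than on CD in RORα f/f liver. The log2 genotype difference of *Lpin2* was -0.86 (SE 0.22) on CD and -0.02 (SE 0.22) on HFD, and its diet difference was -0.82 (SE 0.22) in RORα f/f and 0.02 (SE 0.22) in RORα LKO liver. The CD-fed RORα f/f libraries enter both of the larger values. A single library weighed on the CD value, since the genotype difference of *Lpin2* on CD was -0.51 without CD-fed RORα LKO library 1 and -1.21 without library 2 of that group.

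*Lpin3* was near the level at which genes were kept for testing, and its groups lay close together. Its FPKM was 1.30 and 1.51 in CD-fed RORα f/f libraries, 1.43 and 1.24 in CD-fed RORα LKO, 0.993 and 1.42 in HFD-fed RORα f/f, and 1.23 and 1.11 in HFD-fed RORα LKO. Every pair of neighbouring groups in the order of *Lpin3* means overlapped, and the genotypes overlapped on both diets. Group means of *Lpin3* ran from 1.17 ± 0.0856 FPKM (SD, n = 2) in HFD-fed RORα LKO to 1.41 ± 0.146 in CD-fed RORα f/f liver. The log2 genotype difference of *Lpin3* was -0.07 (SE 0.14) on CD and -0.03 (SE 0.14) on HFD, each smaller than its error.

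The libraries of the genotypes did not overlap on CD for *Lpin1* and *Lpin2*, 2 of the 3 lipins, as for 43.3% of the 11634 genes tested. The same 2 of 3 lipins did not overlap on HFD, where the background was 42.1% and the *Lpin2* gap was only that between 68.3 and 68.8 FPKM. The diets did not overlap for *Lpin2* alone in RORα f/f liver (background 49.9%), and for *Lpin1* and *Lpin3* in RORα LKO liver (background 53.2%). With 2 libraries against 2, an exact permutation test cannot give a two-sided p below 0.333.

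FPKM is scaled by transcript length, so the 3 lipins can be added up within a library. Their summed FPKM was 204 ± 23.5 (SD, n = 2) in CD-fed RORα f/f, 92.9 ± 27.6 in CD-fed RORα LKO, 145 ± 3.89 in HFD-fed RORα f/f and 100 ± 4.18 in HFD-fed RORα LKO liver. All 4 RORα LKO sums, 73.4 to 112, lay below the 4 RORα f/f sums, 142 to 221. On CD both *Lpin1* and *Lpin2* entered this gap, whereas on HFD *Lpin2* was at about the same level in both genotypes and *Lpin1* made up nearly all of it.

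The make-up of the lipin pool differed as well. *Lpin1* gave 36.6% and 35.0% of summed lipin FPKM in CD-fed RORα f/f libraries, 23.8% and 16.7% in CD-fed RORα LKO, 48.4% and 52.4% in HFD-fed RORα f/f, and 28.4% and 33.2% in HFD-fed RORα LKO. The share of *Lpin1* was thus highest in HFD-fed RORα f/f liver, where its own FPKM was as on CD and that of *Lpin2* was lower. *Lpin3* gave between 0.683% and 1.95% in every library. FPKM of *Lpin1* relative to *Lpin2* ran from 0.203 in CD-fed RORα LKO library 2 to 1.12 in HFD-fed RORα f/f library 2, the only library in which *Lpin1* stood above *Lpin2*.

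**Figure D2:**
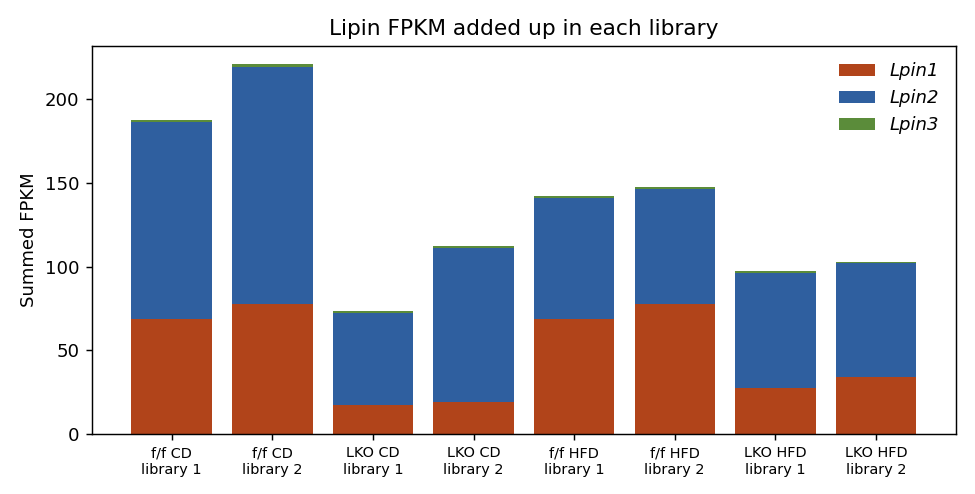
Summed FPKM of the 3 lipins (vertical axis) in each of the 8 libraries, with *Lpin1*, *Lpin2* and *Lpin3* stacked. The sums run from 73.4 to 112 in the RORα LKO libraries and from 142 to 221 in the RORα f/f libraries, and the *Lpin3* band is at most 1.95% of a bar.

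The diet difference averaged over the genotypes does not use the genotype contrasts by which the family was chosen, so it was tested. Like the lists, this test was chosen with earlier results of these data known. *Lpin1* passed, with a log2 difference (HFD minus CD) of 0.42 (SE 0.08, unadjusted p = 0.0015, adjusted p = 0.028, limma with Benjamini-Hochberg adjustment), and was the 1 of 3 lipins called, where the background was 9.89% of genes (5.04% higher and 4.86% lower, or 586 and 565 genes, against 397 and 703 without normalization). This average joins the 0.08 of RORα f/f and the 0.76 of RORα LKO liver, so both HFD-fed RORα LKO libraries showed the direction beyond overlap and the RORα f/f libraries did not. *Lpin2* lay the other way at -0.40 (SE 0.15, unadjusted p = 0.035, adjusted p = 0.15 by limma) and did not pass. *Lpin3* gave -0.12 (SE 0.10, unadjusted p = 0.27, adjusted p = 0.49 by limma).

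The *Lpin1* call held by a narrow margin. It was lost when any 1 of 7 libraries was left out, with a limma adjusted p of 0.077 without library 1 and 0.065 without library 2 of CD-fed RORα f/f, 0.072 and 0.073 without those of CD-fed RORα LKO, 0.06 and 0.085 without those of HFD-fed RORα f/f, and 0.079 without library 2 of HFD-fed RORα LKO. Only without HFD-fed RORα LKO library 1 did it pass, at an adjusted p of 0.043 in limma. Across these fits the *Lpin1* difference stayed between 0.36 and 0.49. *Lpin2* passed in 1 of them, without CD-fed RORα LKO library 1, at -0.57 with an adjusted p of 0.027 in limma. The p-values measure the spread between pools of livers, 2 per group.

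**Figure D3:**
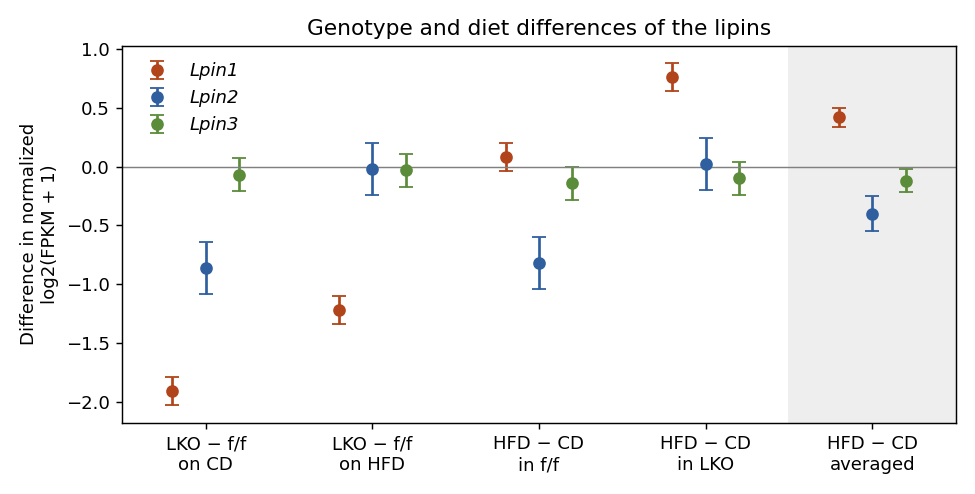
Differences of the 3 lipins in normalized log2(FPKM + 1) (vertical axis) between genotypes on each diet, between diets in each genotype and between diets averaged over genotypes (shaded, the tested comparison). Points are fitted differences and bars are 1 SE. *Lpin1* is at -1.91 and -1.22 between genotypes and at 0.42 in the shaded comparison, and *Lpin2* is at -0.86 and -0.02 between genotypes.

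Over the 8 libraries, the normalized values of *Lpin1* and *Lpin2* had a Pearson r of 0.50, those of *Lpin1* and *Lpin3* 0.12, and those of *Lpin2* and *Lpin3* 0.34, a description over libraries that fall into 4 groups. Among 9839 genes above FPKM 1 in all 8 libraries, the pattern of *Lpin1* was most like those of *Lurap1l* (r = 0.975), *Xpa* (0.949), *Atf6* (0.944), *Etnk2* (0.944) and *Eef1e1* (0.942). The groups lay closer together in these genes than in *Lpin1*. *Lurap1l* went from 21.4 FPKM in CD-fed RORα f/f to 13.7 in CD-fed RORα LKO and from 20.9 to 17.3 on HFD, and *Etnk2*, which phosphorylates ethanolamine, from 125 to 96.1 and from 129 to 95.7. *Lpin2* was most like *Ubxn7* (r = 0.982), *Tmed2* (0.976), *Slc25a32* (0.969), *Eif1* (0.965) and *Gm15622* (0.954). *Lpin3* was most like *Kpna2* (r = 0.943), *Tnks2* (0.922), *Traf3ip1* (0.916), *Srsf6* (0.915) and *Cyth1* (0.911).

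No gene that was tested overlapped a lipin. Of the tested genes within 500 kb, *Lpin1* had 2, *E2f6* and *Rock2*, with genotype differences on CD of -0.04 and -0.42 against -1.91 for *Lpin1* itself, and on HFD of -0.07 and -0.01. *Lpin2* had 7 such neighbours and *Lpin3* had 4, and 1 neighbour of each lipin had an unadjusted p below 0.05 in limma between genotypes on CD, where 12.3% of all genes did, and 0 on HFD. For *Lpin1* it was *Rock2* (unadjusted p = 0.0019 by limma). The neighbours were looked at after the lipin values were known.

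The genes on either side of the lipin step were taken from lists set up with earlier results of these data in view. None of the listed genes passed adjustment between genotypes, a call made for 0.0172% of genes on CD and 0.043% on HFD, so the counts between genotypes below use an unadjusted limma p under 0.05, which 12.3% of genes reached on CD and 9.58% on HFD. Of 12 genes of glycerol phosphate and phosphatidate synthesis, which supplies the lipin substrate, 10 were tested, and 3 were higher and 0 lower in RORα LKO on CD and 4 higher and 0 lower on HFD. The CD count was 1 without CD-fed RORα f/f library 1 or CD-fed RORα LKO library 2, and the HFD count was 1 without HFD-fed RORα f/f library 2 (2 without library 1 of that group or HFD-fed RORα LKO library 1). *Gpat3*, a glycerol phosphate acyltransferase, was at a log2 difference of 0.82 on CD and 0.49 on HFD, where *Lpin1* was at -1.91 and -1.22, and *Gpd1*, which makes glycerol phosphate, was at 0.20 and 0.66. The list of diacylglycerol use covered the routes to triglyceride, phosphatidylcholine and phosphatidylethanolamine, and not all of its genes take up diacylglycerol themselves. Of its 13 genes, 12 were tested, with 0 on CD and 4 higher and 1 lower on HFD. *Mogat1*, which makes diacylglycerol without a lipin, was at 0.84 on HFD. It was near the level at which genes were kept for testing, at 0.638 and 0.397 FPKM in HFD-fed RORα f/f and 1.80 and 1.59 in HFD-fed RORα LKO liver. Also on HFD, *Selenoi* and *Chpt1*, which make phosphatidylethanolamine and phosphatidylcholine, were at 0.47 and 0.38. The choline kinase *Chkb* was at 0.37, and *Dgat2*, which completes triglyceride, was at -0.30. Of 14 genes of other routes of phosphatidate, 13 were tested. Those at the threshold were *Dgkq* (0.32, higher) on CD and *Dgkz* (0.28, higher) on HFD, 1 per diet. Each count was below the share of all genes at that threshold. Both genes encode diacylglycerol kinases, and the other such kinases on the list reached the threshold on neither diet. That CD count of 1 was 0 without library 1 and 2 without library 2 of CD-fed RORα LKO, and the HFD count of 1 was 0 with median centring or without HFD-fed RORα f/f library 1 or any 1 of the 4 RORα LKO libraries, and 2 without HFD-fed RORα f/f library 2. *Dgat2* on HFD was the only tested gene of these 3 lists that was lower in RORα LKO at that threshold, and others lay lower without reaching it. *Lpin1* was chosen as low and has no test between genotypes, so it cannot be set against that threshold.

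**Figure D4:**
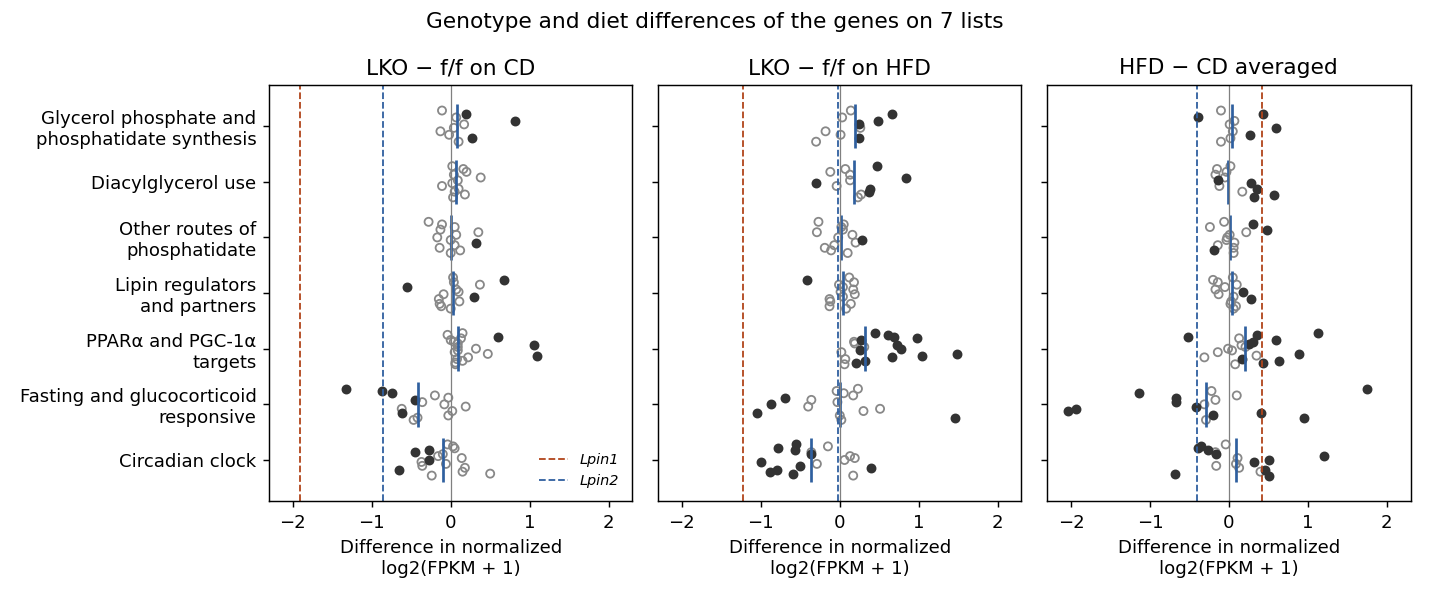
Differences in normalized log2(FPKM + 1) (horizontal axes) of the tested genes on 7 lists, between genotypes on CD, between genotypes on HFD and between diets averaged over genotypes. Each circle is a gene, filled where the unadjusted limma p is below 0.05, blue ticks are list medians and dashed lines mark *Lpin1* and *Lpin2*. *Lpin1* lies at -1.91 on CD, left of every list gene, and the lowest list median on CD is -0.42, for fasting and glucocorticoid responsive genes.

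Of 15 known regulators and partners of lipins, 14 were tested, with 2 higher and 1 lower on CD and 0 higher and 1 lower on HFD (2 in all without HFD-fed RORα LKO library 1). *Ppargc1a*, which encodes the lipin 1 partner PGC-1α, was highest in CD-fed RORα f/f liver, as *Lpin2* was, at 3.09 and 3.91 FPKM against 1.96 and 2.17 in CD-fed RORα LKO, 2.58 and 2.37 in HFD-fed RORα f/f and 2.61 and 2.54 in HFD-fed RORα LKO. Its genotype difference was -0.55 on CD (limma unadjusted p = 0.002, adjusted p = 0.20) and 0.04 on HFD (adjusted p = 0.94). *Srebf1*, which encodes SREBP-1, was at 0.68 on CD and -0.41 on HFD, and within RORα LKO liver it fell by 0.74 on the log2 scale with HFD (limma adjusted p = 0.040, a call made for 3.02% of genes), where *Lpin1* was at 0.76. *Kat5*, an acetyltransferase that acts on lipin 1, was at 0.30 on CD.

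Targets of PPARα and PGC-1α, with which lipin 1 acts on genes of fatty acid oxidation, were not on the low side where *Lpin1* was low. The list also holds genes outside oxidation, such as *Cd36*, *Vldlr*, *Apoa4* and *Fgf21*. Of the 19 genes, all tested, 3 were higher and 0 lower in RORα LKO on CD (background 6.15% higher, list median 0.09), and 13 were higher and 0 lower on HFD (background 5.46% higher, list median 0.32), while the median of all genes lay within 0.01 of 0. The HFD count was 5 without HFD-fed RORα f/f library 2, 8 without HFD-fed RORα LKO library 1 and 6 without library 2 of that group, and the CD count was 1 without CD-fed RORα f/f library 1 and 5 without CD-fed RORα LKO library 1. *Apoa4* was at 1.09 on CD and 1.04 on HFD, the hormone *Fgf21* at 1.05 and 0.73, *Pdk4* at 0.13 and 0.98 and *Ehhadh* at 0.32 and 0.77. *Pdk4* was near the level at which genes were kept for testing, at 1.24 FPKM in each HFD-fed RORα f/f library.

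Genes that respond to fasting and glucocorticoids in liver, as *Lpin1* does, formed a further list. Of the 15, all tested, 0 were higher and 5 lower in RORα LKO on CD (background 6.12% lower, list median -0.42), namely *Zbtb16* (-1.32), *Tsc22d3* (-0.87), *Tat* (-0.74), *Fkbp5* (-0.62) and *Per1* (-0.45), and the count was 3 without either CD-fed RORα f/f library or without CD-fed RORα LKO library 1. Among the other genes of this list, *Igfbp1* (-0.62), *Pck1* (-0.36) and *G6pc* (0.02) did not reach an unadjusted limma p of 0.05 on CD. *Zbtb16* was near the level at which genes were kept for testing in CD-fed RORα LKO liver. It was at 0.918 and 0.645 FPKM there, against 4.81 and 2.35 in CD-fed RORα f/f liver. *Tsc22d3*, a glucocorticoid-induced gene, was at 107.3 and 107.8 FPKM in CD-fed RORα f/f and at 59.5 and 57.1 in CD-fed RORα LKO liver. On HFD it overlapped between genotypes at 71.3 and 62.0 against 72.1 and 55.4. On HFD 1 was higher (*Cdkn1a*, 1.46) and 3 were lower (*Fkbp5* -1.05, *Mt2* -0.87, *Sds* -0.69), where 4.12% of all genes were lower, with a list median of 0.00, and *Lpin1* was at -1.22. None of the 15 passed adjustment for the difference between the genotype effects. Of 18 clock genes, several of them known RORα targets, 17 were tested. On CD 1 was higher and 4 were lower (list median -0.10), and 1 of the 4, *Per1*, is also on the fasting list. On HFD 1 was higher and 9 were lower (list median -0.36), with *Dbp* at -1.0, *Bhlhe41* at -0.88, *Per3* at -0.78 and *Per2* at -0.57. *Bhlhe41* was near the level at which genes were kept for testing. It was at 2.44 and 1.46 FPKM in HFD-fed RORα f/f and 0.285 and 0.968 in HFD-fed RORα LKO liver. The gene that was higher on HFD was *Clock* (0.40). *Arntl*, which encodes BMAL1, a clock factor that the authors describe as controlled by RORα, was at -0.24 on CD and 0.17 on HFD. Its FPKM was low as well, at 0.588 and 0.536 in CD-fed RORα f/f liver. *Nr1d1* was at -0.16 and 0.13, and neither *Arntl* nor *Nr1d1* reached an unadjusted limma p of 0.05 on either diet. The 5 clock genes on CD were 2 without CD-fed RORα f/f library 1, CD-fed RORα LKO library 1 or HFD-fed RORα LKO library 2 and 3 without CD-fed RORα f/f library 2 or HFD-fed RORα LKO library 1, and the 10 on HFD were 6 without HFD-fed RORα LKO library 1.

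In the averaged diet comparison *Lpin1* rose. On the list of PPARα and PGC-1α targets, 7 of 19 tested genes also rose and 0 fell, where 5.04% of all genes rose and 4.86% fell. Among the 7 were *Vldlr* 1.13, *Cd36* 0.89, *Acadm* 0.64, *Acadl* 0.43, *Hadhb* 0.31 and *Hadha* 0.26. *Vldlr* was above FPKM 1 only on HFD, at 0.201 to 0.505 FPKM on CD and 1.46 to 2.82 on HFD. The lists of phosphatidate synthesis, diacylglycerol use, other routes and regulators, with 10, 12, 13 and 14 tested, had 9 that rose (*Gk* 0.60, *Plpp1* 0.48, *Gpd1* 0.43, *Chpt1* 0.35, *Cept1* 0.32, *Plpp3* 0.31, *Dgat2* 0.28, *Hnf4a* 0.28, *Agpat3* 0.27) and 0 that fell. The fasting list went largely the other way from *Lpin1*, with 5 of 15 that fell (*G6pc* -2.04, *Igfbp1* -1.93, *Tat* -1.14, *Pck1* -0.67, *Sds* -0.67) and 2 that rose (*Zbtb16* 1.75, *Cdkn1a* 0.95). *Zbtb16* spread widely, at 0.918 and 0.645 FPKM in CD-fed RORα LKO and 5.08 and 15.5 in HFD-fed RORα LKO liver. Of 17 tested clock genes, *Nr1d1* (1.20), *Hlf* (0.51) and *Ciart* (0.46) rose and *Bhlhe40* (-0.68) fell. All these calls had a limma adjusted p between 0.00053 and 0.048, and over all genes the calls of this comparison fell from 1151 to between 374 and 816 when 1 library was left out.

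Adipocytes and skeletal muscle are rich in *Lpin1*, but 0 of 5 skeletal muscle markers reached FPKM 1 in any library (sums of 0.183 to 0.987), and of 6 adipocyte markers only *Cfd* did. The adipocyte sum was highest in HFD-fed RORα LKO liver, at 5.7 to 5.92 FPKM, where *Adipoq* was listed at 0 and *Lpin1* was at 27.6 and 34.2. Kupffer cell and macrophage markers summed to 62.9 to 85.1 FPKM in the CD-fed libraries, 48.9 to 62.0 in HFD-fed RORα f/f and 63.5 to 87.2 in HFD-fed RORα LKO, stellate cell markers to 11.2 to 14.3 on CD and 15.6 to 21.9 on HFD, and endothelial, cholangiocyte and lymphocyte markers to 33.2 to 51.1, 2.05 to 2.67 and 0.66 to 1.8. Their part in the lipin values was not tested.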

How the data were processed

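Poly(A) RNA of 8 pools of mouse liver was sequenced. The authors trimmed the reads (cutadapt 1.0), aligned them to GRCm38 with TopHat2 2.0.7 and estimated FPKM per gene with Cufflinks, and the deposited values are these FPKM, with no read counts, so that the depth of a library is unknown here. An FPKM of exactly 0 can be a failed estimate. Symbols and positions came from GENCODE M21, which matched 36341 of 38283 gene identifiers.

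Genes above FPKM 1 in at least 1 library (11634) were converted to log2(FPKM + 1), on which low genes show too small a change, quantile normalized and fitted with limma 3.58.1 in R 4.3.3 (4 group means, trended variance, 4 residual degrees of freedom, Benjamini-Hochberg adjustment over all tested genes, threshold 0.05). The fit was tested on simulated data. The permutation procedure of the study was not used here. Lipins, lists and tests were chosen with earlier results of these data known. Besides the lipins, *Rora* and the 5 genes most like each lipin, the text names list genes past adjusted p 0.05 in any contrast and up to 4 more per list by size of difference among those past unadjusted p 0.05. The lipin neighbours, *Arntl*, *Clock* and single cell markers were named outside this rule after their values were seen. A further list gene is not reported here by name. Alternatives covered normalization, pseudocount, filters, variance trend, a replicate block and each library left out. Promoter sequences came from RefSeq. Protein sequences were not used here.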

Additional observations from a re-analysis of the deposited data

How the results depend on the processing

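With 2 libraries per group, unknown depth and FPKM in place of counts, single libraries weighed on several lipin values. Leaving out 1 library at a time, the averaged diet difference ran from 0.36 to 0.49 for *Lpin1* and from -0.57 to -0.22 for *Lpin2*. The genotype difference on HFD ran from -1.36 to -1.09 for *Lpin1* and from -0.18 to 0.12 for *Lpin3*, and on CD from -1.21 to -0.51 for *Lpin2*. The difference between the genotype effects ran from 0.55 to 0.82 for *Lpin1*, 0.49 to 1.19 for *Lpin2* and -0.12 to 0.18 for *Lpin3*. The diet difference in RORα LKO ran from 0.63 to 0.90 for *Lpin1* and -0.33 to 0.37 for *Lpin2*, and that of *Lpin3* in RORα f/f from -0.29 to 0.02, turning to 0.02 without HFD-fed RORα f/f library 1. Genes of the 7 lists at an unadjusted p below 0.05 numbered 12 to 19 between genotypes on CD (19 with all libraries) and 25 to 40 on HFD (38), the lowest counts coming without CD-fed RORα f/f library 1 and HFD-fed RORα f/f library 2. With every gene above FPKM 0 tested, the averaged diet difference of *Lpin1* stayed at 0.42 but missed the threshold (limma adjusted p = 0.057, range over all alternatives 0.013 to 0.085). Genes called in that comparison numbered 1151, 704 with every gene above FPKM 0, and 374 to 816 with 1 library left out, fits that have fewer samples. Genes called between genotypes numbered 2 on CD (1 to 10 under the other settings, 2 to 19 with 1 library left out) and 5 on HFD (4 to 24, and 4 to 21), and those called for diet in RORα LKO liver 351 (135 to 570, and 21 to 154). *Lpin3* had no value where FPKM above 1 was required in all 8 libraries.

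Over all tested genes, the deviations of same-numbered libraries were weakly correlated (-0.0037 to 0.149). A value over all genes does not show whether the numbers pair the libraries for a given gene. *Lpin1* was higher in library 2 than in library 1 of every group, whereas *Lpin2* and *Lpin3* went both ways. With a replicate block the averaged diet difference was 0.42 for *Lpin1* (limma adjusted p = 0.013) and -0.40 for *Lpin2* (adjusted p = 0.14), and neither call changed. The block gave 882 called genes in the averaged diet comparison, and 22, 35 and 46 list genes at an unadjusted p below 0.05 on CD, on HFD and in the averaged diet comparison. Of the other routes of phosphatidate it gave 3 on CD and 0 on HFD.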
